A study of Mus musculus with 15 samples.

Results

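The comparison described here asks what the solvent alone does to C2C12 myotubes, and it uses 6 of the 15 RNA sequencing libraries of the series: 3 labelled as vehicle, in 0.1% DMSO, and 3 labelled as non-treated. They were chosen by their treatment labels, not by any measured value. C2C12 is an established line of mouse myoblasts, the precursor cells of muscle. All libraries came from this line, without genetic change, grown to near confluence, switched to low horse serum for 6 days to form myotubes, and collected 24 h after the treatment began. The other 9 libraries received Jakyak-gamcho-tang (JGT), an extract of peony and licorice roots, with 3 libraries at each of the doses 20, 100 and 500 µg/mL, and serve here for the estimate of spread and for levels set side by side. JGT had been dissolved in saline buffer (PBS) that held DMSO. The labels leave unsaid whether the vehicle medium also held PBS, and they name dexamethasone for none of the libraries. They also leave unsaid whether the 3 libraries of a group stem from 3 cultures. The p-values below thus refer to the spread from library to library, and that spread may be technical.

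When myoblasts leave the cell cycle they switch off the genes of DNA replication and mitosis, fuse, and build sarcomeres, the contractile units of muscle. A C2C12 culture also keeps single, unfused cells, some of which can still divide. DMSO is a small amphipathic solvent that crosses membranes and carries poorly soluble compounds into culture medium. Cells that need sterol switch on the enzymes of cholesterol synthesis together, through a membrane-bound transcription factor, and immediate early genes such as Egr1 rise briefly after growth signals, stretch or medium change. In a bulk library, fewer cells of a type and less RNA per cell of that type cannot be told apart.

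The differences were small. Of 14461 genes tested, 189 (1.31%) passed the test, 80 (0.553%) higher and 109 (0.754%) lower in vehicle. A gene is called here when its Benjamini-Hochberg adjusted p from edgeR's quasi-likelihood test was below 0.05, in 1 fit over all 15 libraries. Only 4 called genes had a log2 fold change of 0.5 or more in either direction. Among the called genes the median log2 fold change was 0.21 for those higher and −0.25 for those lower, and 82.8% of all tested genes lay within 0.2 of 0. The groups did not overlap in any of the 189 called genes. Of all genes, 13.2% lay entirely higher and 13.6% entirely lower in vehicle.

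The count of calls depended on the fit. With only the 6 libraries of the comparison it was 1031 of 13994 (7.37%), 479 higher (3.42%) and 552 lower (3.94%), and these included all 189. With upper-quartile scaling 61 genes were higher and 147 lower. Leaving out any 1 of the 6 libraries left between 36 and 88 calls. Of 73 called genes whose alternatives were followed one by one, 16 kept their call under every alternative: Top2a, Mki67, Kif20a, Cenpe, Smc2, Cenpf, Ccnd1, Clspn, Hmgcs1, Actg2, Postn, Fgfbp1, Myh8, Gas1, Carns1 and Sssca1. The other 57 lost it under at least 1.

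**Figure D1:**
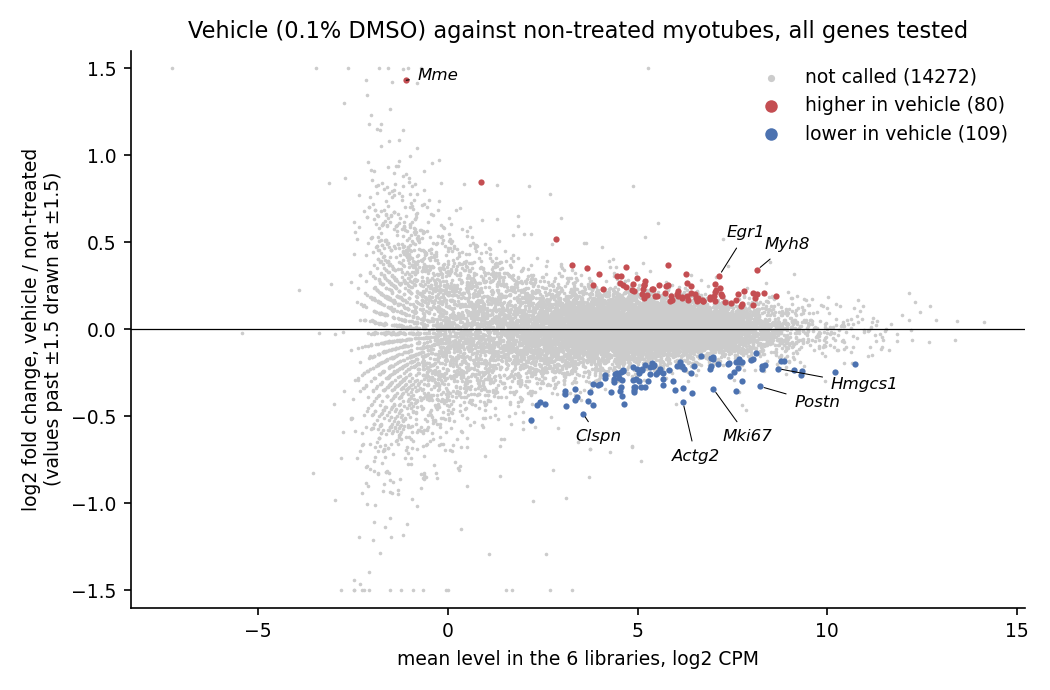
Each point is 1 of the 14461 tested genes, with its mean level in the 6 libraries (log2 CPM) on the x axis and its log2 fold change, vehicle over non-treated, on the y axis. The 80 genes called higher (red) and 109 called lower (blue) lie near the horizontal line, nearly all within 0.5 of it, and the wide scatter at the left belongs mostly to genes of low count that were not called.

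The 6 libraries held 26012844 to 29685983 counts each. Non-treated libraries 1 and 3 had relatively more counts from transcripts of low GC content than the other 4 libraries, and non-treated library 2 lay with the vehicle libraries in this respect. The rank correlation across genes between GC content and a library's deviation from the mean of the 6 was −0.24 and −0.26 in non-treated libraries 1 and 3, 0.05 in non-treated library 2, and 0.17, 0.17 and 0.09 in vehicle libraries 1, 2 and 3. Genes called higher had a median transcript GC content of 56.9% and genes called lower 46.2%, against 49.8% for all tested genes. After a correction for GC content within each library, which was added after seeing the data, 149 genes (1.05%) passed, with 32 higher (0.225%) and 117 lower (0.823%), and the 189 included 115 of them. With the same correction in the 6 libraries alone, 816 (5.92%) passed, with 323 higher (2.34%) and 493 lower (3.57%). Non-treated library 2 also had a smaller share of mitochondrially encoded counts, 4.21%, against 4.74% to 5.05% in the other 5.

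**Figure D2:**
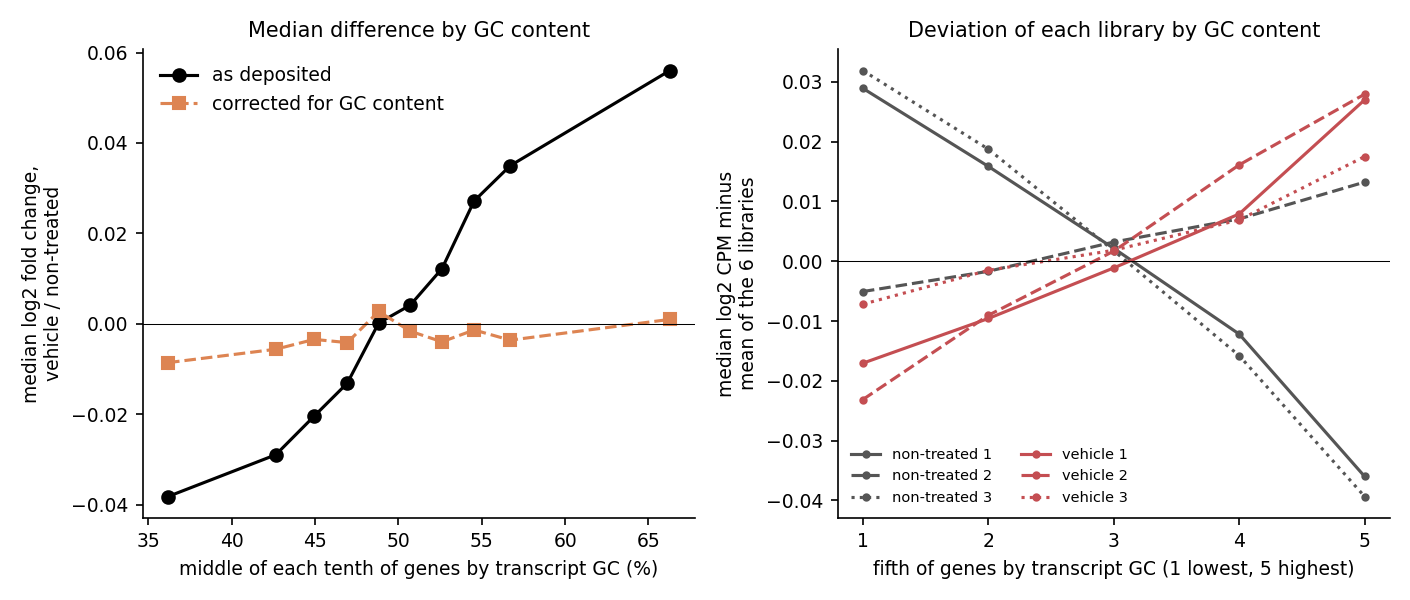
Left, the median log2 fold change, vehicle over non-treated, in 10 equal groups of genes ordered by the GC content of their transcripts (x axis, percent), rising from −0.04 to 0.06 as deposited (black) and flat near 0 after correction (orange). Right, the median deviation of each library from the mean of the 6 (log2 CPM) in 5 equal groups of genes by GC content: non-treated libraries 1 and 3 slope down, and non-treated library 2 and the vehicle libraries slope up.

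Markers of muscle were abundant in all 6 libraries, which the labels call myotubes. The summed level of 11 myotube markers was 18686 to 19140 CPM (counts scaled to a common library size) in non-treated and 19314 to 20601 in vehicle libraries. The 20 markers of myoblasts and of quiescent reserve cells summed to 1193 to 1216 CPM and 1247 to 1260 CPM in the same order, with Calcr at 0 throughout. Neither sum overlapped between groups, and the part of these sums in the results was not tested. The 13 adipocyte markers summed to 30.2 to 35.7 CPM in non-treated and 31.3 to 33.2 in vehicle, with Adipoq, Cidec and Cfd at 0 in all 6 libraries. The 12 immune and endothelial markers summed to at most 4.67 CPM in any library, with Emr1, the macrophage marker F4/80, at 0.

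Genes of cell division were lower in vehicle. Of 131 tested genes on the lists for DNA replication, mitosis and control of the G1 phase, 27 fell and 0 rose, or 20.6% lower against 0.754% of all genes. The mitosis list held most of them, with 22 of 65 members lower, 43 not called and a median log2 fold change of −0.23, beside 0.00 for all genes tested. Of its 65 members, 64 had a value below 0 and 53 lay entirely lower in vehicle, against 13.6% of all genes. Relative to the non-treated mean, the median of the list was −0.28, −0.17 and −0.22 in the 3 vehicle libraries and −0.02, 0.02 and 0.00 in the 3 non-treated ones.

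Top2a and Mki67 kept their call under all alternatives and are shown with their promoters, because a short element there, the cell cycle homology region (CHR), is the known site through which the DREAM and MuvB complexes hold late cell cycle genes silent in resting cells. The 250 bases before the RefSeq start site on the gene's strand (GRCm38.p6) are given 5′ to 3′, with each match to TTTGAA or TTCGAA on either strand in capitals. The stretches are chr11:99024190-99024439 for Top2a and chr7:135716380-135716629 for Mki67, both on the minus strand.
Top2a: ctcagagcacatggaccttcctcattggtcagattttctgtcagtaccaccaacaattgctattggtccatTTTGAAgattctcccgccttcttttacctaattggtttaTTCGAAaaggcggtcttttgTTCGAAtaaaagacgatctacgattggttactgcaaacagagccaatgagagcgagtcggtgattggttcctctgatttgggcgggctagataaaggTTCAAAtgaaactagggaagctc
Mki67: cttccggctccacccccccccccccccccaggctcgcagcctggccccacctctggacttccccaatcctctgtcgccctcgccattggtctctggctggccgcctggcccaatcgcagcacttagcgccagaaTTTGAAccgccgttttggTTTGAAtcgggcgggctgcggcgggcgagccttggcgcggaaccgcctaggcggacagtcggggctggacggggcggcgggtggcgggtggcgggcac
The Top2a stretch held 4 matches and the Mki67 stretch 2. RefSeq gave a promoter for 55 of the 65 mitosis genes, and 21 of them (38.2%) held a match, against 14.7% of the 10665 promoters of tested genes. CCAAT, on either strand and counted apart from the first motif, was in 40 of the 55 (72.7%) against 40.5%. Of other mitosis genes that kept their call, Smc2 held a CHR match, Cenpe and Cenpf did not, and Kif20a had no promoter to search. In the DNA replication list 10 of 43 promoters (23.3%) held a CHR match. Whether the motif and the fall go together was not tested. These are matches of letters in a window, and binding was not measured.

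Mki67 (chr7:135689784-135716361), the gene of the proliferation marker Ki-67, measured 145, 140 and 144 CPM in the non-treated libraries and 115, 113 and 111 CPM in vehicle. All 3 vehicle values lay below all 3 non-treated ones, by far more than the spread within either group. The log2 fold change was −0.34 ± 0.0438 (SE), with an edgeR adjusted p of 0.000911. Top2a (chr11:98992943-99024189), the topoisomerase that untangles chromosomes before they separate, measured 92.1, 99.2 and 98.6 CPM in non-treated and 73.8, 76.9 and 74.2 CPM in vehicle, again without overlap. Its log2 fold change of −0.37 ± 0.0415 had the smallest adjusted p of the list, 0.000404. After the GC correction the values were −0.33 for Mki67 and −0.34 for Top2a, both with an adjusted p of 0.000791.

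The lower mitotic genes covered successive steps of division. Motors and kinetochore proteins that move and hold chromosomes included Kif20a (56.7 ± 1.23 to 45.4 ± 1.53 CPM, SD, n = 3) and Cenpe (38.1 ± 1.43 to 30.3 ± 1.56 CPM). Cenpf, of the outer kinetochore, lay at 55.3, 57.1 and 55.7 CPM in non-treated and at 46.9, 46.5 and 44.2 CPM in vehicle. Smc2, a subunit of the condensin complex that compacts chromosomes, went from 44.0 ± 0.583 to 36.9 ± 0.577 CPM. Their edgeR adjusted p lay between 0.00105 for Kif20a and 0.00573 for Cenpf. Genes of the final cleavage of the cell followed, among them Kif23 (log2 −0.36), Prc1 (−0.26), Anln (−0.23), Racgap1 (−0.21) and Ect2 (−0.28). The kinases Plk1 (−0.26) and Aurka (−0.31), the cyclin Ccna2 (−0.23) and the transcription factor Foxm1 (−0.21) fell as well. Each of the last 9 lost its call without at least 1 library, with adjusted p of at most 0.177. Kif15, a spindle motor, measured 9.79, 10.0 and 9.90 CPM in non-treated and 7.10, 7.02 and 7.75 CPM in vehicle, without overlap. Its log2 fold change was −0.44, with an adjusted p of 0.0186 from edgeR and 0.0612 to 0.0970 without non-treated library 1, 2 or 3 or vehicle library 1 or 2.

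Not every mitotic gene passed the test. Ccnb1, the cyclin that drives entry into mitosis, measured 24.1, 25.1 and 26.1 CPM in non-treated and 21.4, 24.0 and 23.7 CPM in vehicle, a log2 fold change of −0.13 with a 95% interval from −0.27 to 0.01 (edgeR adjusted p = 0.362). Cks2 was the 1 member above 0, at 0.21, and its groups overlapped (adjusted p = 0.590). The number of mitosis members lower was 38 with the 6 libraries alone, 22 with the GC correction, and 6 to 13 when 1 library was left out: 11, 11 and 10 without non-treated library 1, 2 or 3, and 6, 13 and 8 without vehicle library 1, 2 or 3.

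DNA replication genes showed a smaller shift. Of 52 members, 30 lay entirely lower in vehicle, against 13.6% of all genes, and the median log2 fold change was −0.16. Called lower were 4, against 0.754% of all genes, while 0 rose and 48 were not called. The 4 were Mcm3 and Mcm4, subunits of the helicase that opens the double strand, Rrm1, a subunit of the enzyme that makes deoxyribonucleotides, and Uhrf1, which carries DNA methylation over to the new strand. Mcm3 measured 25.6, 28.7 and 27.1 CPM in non-treated and 22.1, 20.3 and 20.0 CPM in vehicle. Every vehicle value was below every non-treated one, and the log2 fold change was −0.38 ± 0.0759 (SE, edgeR adjusted p = 0.0141). Uhrf1 went from 26.5 ± 1.08 to 21.1 ± 1.47 CPM (SD, n = 3), Mcm4 from 43.3 ± 0.523 to 37.2 ± 0.819 and Rrm1 from 130 ± 4.23 to 111 ± 1.87. These 4 calls were each lost without some single libraries, at adjusted p up to 0.103, and the list held 18 lower members with the 6 libraries alone. Pcna, the sliding clamp of the replication fork, lay at −0.06 (adjusted p = 0.731).

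Clspn encodes claspin, an adaptor of the replication checkpoint, and was on no list. It had the largest fall among called genes of at least 5 CPM. Its levels were 13.8, 13.5 and 14.0 CPM in non-treated and 10.5, 8.87 and 10.1 CPM in vehicle. The fall of 0.48 on the log2 scale, with an edgeR adjusted p of 0.00573, was larger than the spread in both groups.

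Among 14 tested genes that control the G1 phase, Ccnd1 was the 1 call, where 1.31% of all genes were called. Ccnd1 (chr7:144929931-144939925), the gene of cyclin D1, measured 33.6 ± 2.08 CPM in non-treated (SD, n = 3, lowest 31.4) and 27.6, 26.9 and 25.6 CPM in vehicle, without overlap. The log2 fold change was −0.33 ± 0.0558 (SE, edgeR adjusted p = 0.00610). The genes of the cyclin-dependent kinase inhibitors Cdkn1b (0.12, 95% interval 0.04 to 0.20, adjusted p = 0.144) and Cdkn1c (0.19, interval 0.02 to 0.36, adjusted p = 0.240) were not called, although neither overlapped between groups. Cdkn1a lay at 0.03 (adjusted p = 0.728). Cdkn2a and Cdkn2b had no counts in the 6 libraries.

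**Figure D3:**
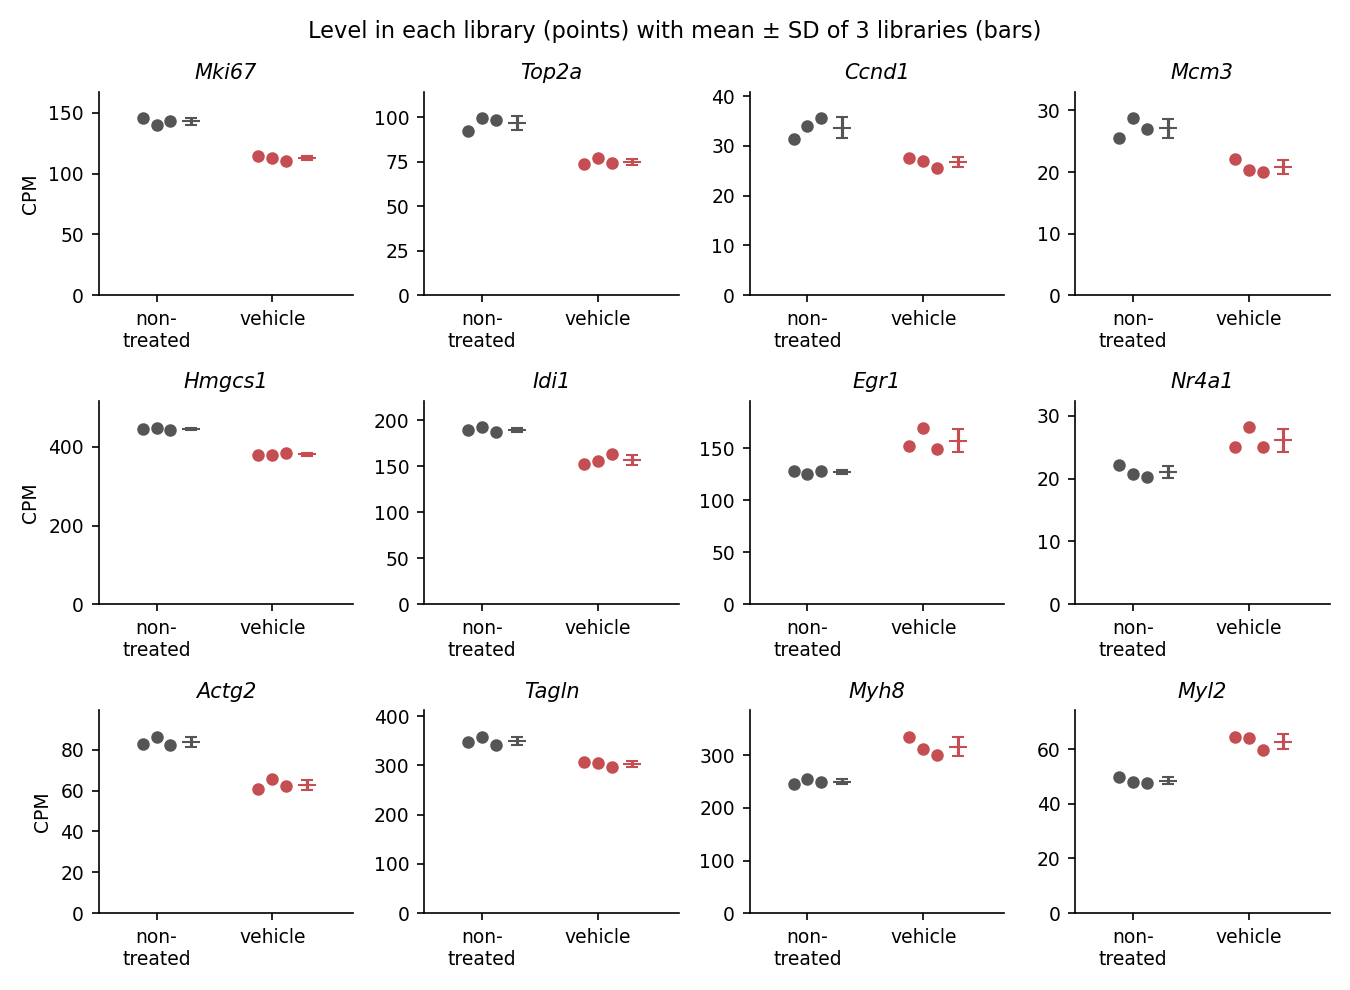
Levels in CPM (y axis, from 0) of 12 genes in each of the 3 non-treated (grey) and 3 vehicle (red) libraries, with the mean ± SD of each group beside the points. In all 12 panels the groups are apart, with vehicle lower for Mki67, Top2a, Ccnd1, Mcm3, Hmgcs1, Idi1, Actg2 and Tagln and higher for Egr1, Nr4a1, Myh8 and Myl2.

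The enzymes of cholesterol synthesis were the next group to lie lower. Of 22 tested enzymes, 4 fell, 0 rose and 18 were not called, with a median log2 fold change of −0.13. Of these values 19 were below 0, and 13 enzymes lay entirely lower in vehicle. Of all genes, 0.754% were called lower and 13.6% lay entirely lower. The median of the list relative to the non-treated mean was −0.17, −0.11 and −0.10 in the 3 vehicle libraries and within 0.01 of 0 in the non-treated ones.

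Hmgcs1 (chr13:119690379-119708260), the cytosolic synthase that makes HMG-CoA, acts early in the pathway and was the 1 called member that kept its call under every alternative. Its promoter is shown because it holds a match to the sterol regulatory element, the site bound by SREBP factors. The stretch chr13:119690101-119690350 (GRCm38.p6, plus strand) covers the 250 bases before the RefSeq start site, 5′ to 3′, with the match in capitals.
Hmgcs1: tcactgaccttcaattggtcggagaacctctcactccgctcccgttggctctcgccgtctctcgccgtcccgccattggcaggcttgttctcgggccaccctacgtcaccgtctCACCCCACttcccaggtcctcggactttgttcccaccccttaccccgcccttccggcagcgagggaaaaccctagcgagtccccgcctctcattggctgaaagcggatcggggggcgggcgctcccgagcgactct
The match begins 136 bases before the start site. The pattern searched, CACNCCAC on either strand, was in 2 of 17 cholesterol gene promoters (11.8%), those of Hmgcs1 and Acat2, against 6.64% of all promoters of tested genes. CCAAT was in 16 of the 17 (94.1%) against 40.5%. These shares describe the genes put on the list, called or not, and say nothing of the vehicle. Whether a match and the fall go together was not tested, and binding was not measured.

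Hmgcs1 measured 445, 449 and 443 CPM in non-treated and 380, 379 and 386 CPM in vehicle. The 3 vehicle values lay close together and well below the 3 non-treated ones. The log2 fold change was −0.23 ± 0.0393 (SE), with an edgeR adjusted p of 0.00753, and −0.20 with an adjusted p of 0.0235 after the GC correction.

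Further down the pathway, Idi1, the isomerase that readies the isoprene unit for joining, measured 189, 192 and 187 CPM in non-treated and 153, 156 and 163 CPM in vehicle. The groups did not overlap, the log2 fold change was −0.27, and the edgeR adjusted p was 0.00722, or 0.0525 without vehicle library 1. Fdps, which joins these units into farnesyl diphosphate, went from 178 ± 8.90 to 155 ± 3.48 CPM (SD, n = 3, log2 −0.20). Sqle, which adds oxygen to squalene ahead of ring closure, went from 216 ± 0.958 to 191 ± 2.07 CPM (log2 −0.17). Both calls were lost when any 1 library was left out, at adjusted p of 0.0627 to 0.148 for Fdps and 0.107 to 0.131 for Sqle, and that of Fdps also with library totals as the only scaling (0.0522) or with limma-voom (0.0505).

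Enzymes short of the threshold included Acat2, which joins acetyl units at the start of the pathway (−0.22, edgeR adjusted p = 0.0660), and Pmvk, a kinase of the mevalonate steps (−0.30, adjusted p = 0.0701), neither of which overlapped between groups. With the 6 libraries alone, 12 enzymes were lower, and with the GC correction 5. Without 1 library, 1 or 2 were: 1 without vehicle library 1, and 2 without any other.

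**Figure D4:**
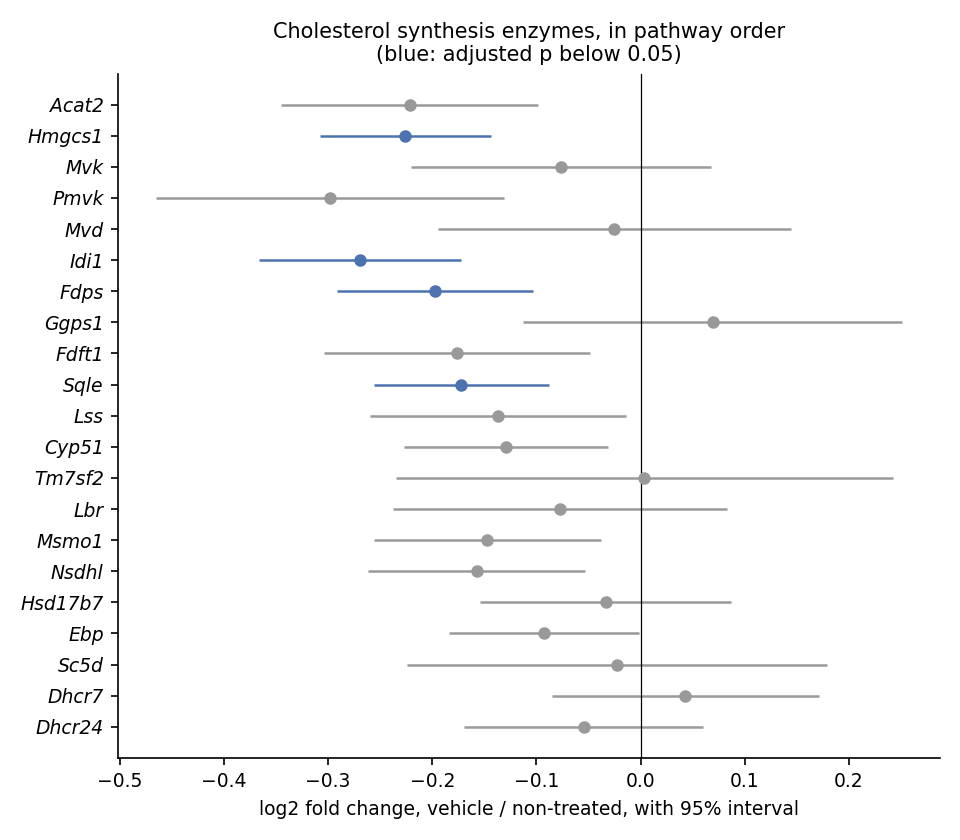
Log2 fold change, vehicle over non-treated (x axis), with its 95% interval for 21 of the 22 cholesterol synthesis enzymes, listed from the first step at the top to the last at the bottom. Blue marks the 4 called enzymes, Hmgcs1, Idi1, Fdps and Sqle, and most grey points also lie left of 0, while Ggps1, Dhcr7 and Tm7sf2 do not.

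Genes that sense and take up sterol were not called. Of 17 members 0 passed in the edgeR fit, 3 were lower with the 6 libraries alone, and the median was −0.02. Insig1, which retains the sterol sensor in the endoplasmic reticulum, was level at 153 ± 4.23 and 149 ± 2.64 CPM (log2 −0.04, 95% interval −0.16 to 0.09). In fatty acid synthesis, 12 of 15 genes had values below 0, with a median of −0.07. Of the 15, 9 lay entirely lower in vehicle and 0 entirely higher, against 13.6% and 13.2% of all genes. Called lower was 1, against 0.754% of all genes. This was Elovl6, an enzyme that lengthens fatty acid chains, which went from 42.9 ± 3.37 to 34.9 ± 0.996 CPM (log2 −0.30, adjusted p = 0.00974, or 0.0516 to 0.0661 without non-treated library 1 or 3 or vehicle library 1 or 2). Genes of sterol efflux and LXR receptors, 10 in number, had a median of 0.08 with 0 called. Abca1, which exports cholesterol, lay at 0.22 (95% interval 0.02 to 0.42, adjusted p = 0.247).

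Early-response genes lay slightly higher. Of 40 members 2 rose, 0 fell and 38 were not called, against 0.553% of all genes higher. The median log2 fold change was 0.08, and 30 values were above 0. Egr1, a zinc finger transcription factor induced by growth signals, measured 128, 125 and 128 CPM in non-treated and 152, 170 and 150 CPM in vehicle. Vehicle library 2 was the highest, and all 3 exceeded every non-treated library. The log2 fold change was 0.31 ± 0.0688 (SE, edgeR adjusted p = 0.0393). Nr4a1, an orphan nuclear receptor of the early response, went from 21.1 ± 0.956 to 26.1 ± 1.79 CPM (SD, n = 3), without overlap and again highest in vehicle library 2, at 28.2 CPM. Its log2 fold change was 0.31 ± 0.0740 (adjusted p = 0.0451).

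Both calls were fragile. After the GC correction Egr1 and Nr4a1 each lay at 0.26, with adjusted p of 0.0933 and 0.0993, and no member was called. The calls of both were also lost on leaving out any 1 of the 6 libraries (0.0734 to 0.148 for Egr1 and 0.0813 to 0.195 for Nr4a1), and that of Egr1 without the filter on low counts (0.0808) and that of Nr4a1 with limma-voom (0.0680). The median GC content of the list was 54.0%, above the 49.8% of all genes. With the 6 libraries alone, 6 members were higher and 1 lower. Jun (0.15, adjusted p = 0.0630) and Junb (0.18, 0.0657), subunits of the AP-1 factor, and the kinase gene Sik1 (0.17, 0.0650) were just short of the threshold. Fos (0.21, 0.313), another AP-1 subunit, overlapped between groups, and so did Myc (−0.03, 0.801). Feedback genes of the ERK pathway (16 members) and NF-kB and chemokine genes (14 members) had 0 called and medians of 0.00 and −0.04.

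Actin cytoskeleton genes, many of them known targets of the serum response factor SRF, went the other way. The list holds genes best known from smooth muscle, such as Actg2, Tagln and Cnn1, and general cytoskeletal genes, such as Actb, Vcl and Flna. Of its 15 members 4 fell, 0 rose and 11 were not called, with a median of −0.10, and 10 lay entirely lower in vehicle. Of all genes, 0.754% were called lower and 13.6% lay entirely lower. Actg2 (chr6:83512905-83536265), smooth muscle gamma-actin, measured 82.8, 86.5 and 82.2 CPM in non-treated and 60.6, 65.5 and 62.1 CPM in vehicle. The groups stood far apart, with a log2 fold change of −0.42 ± 0.0548 (SE, edgeR adjusted p = 0.000943). Tagln, the actin-binding transgelin, went from 350 ± 8.66 to 303 ± 5.36 CPM (SD, n = 3, log2 −0.21). Myl9, a regulatory light chain of non-muscle and smooth muscle myosin (log2 −0.21), and Tpm4, a cytoskeletal tropomyosin (−0.18), fell too. The calls of Tagln, Myl9 and Tpm4 were lost without several of the single libraries, at adjusted p up to 0.0897. Cnn1, the calponin of smooth muscle, lay at −0.73 from a low level of 2.47 ± 0.452 CPM and was not called (adjusted p = 0.0574). Acta2, the alpha-actin of smooth muscle, lay at −0.10 (adjusted p = 0.189). Of 11 promoters of this list, 5 (45.5%) held a CArG box, the site bound by SRF, against 1.44% of all. Known SRF targets were put on this list, so that share follows in part from its make-up and says nothing of the vehicle. In the early-response list, whose median was above 0, 3 of 28 promoters (10.7%) held the box.

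Few maturation genes were called. Across 177 tested genes of muscle transcription factors, fusion, sarcomere, calcium handling, energy supply, the neuromuscular junction and atrophy, 4 rose, which is 2.26% against 0.553% of all genes, and 0 fell. The 4 were Myh8, Myl2, Id3 and Colq. With the 6 libraries alone, 23 of 175 such genes were higher (13.1%, against 3.42% of all) and 6 lower (3.43%, against 3.94%). With the GC correction as well, 16 were higher (9.14%, against 2.34% of all) and 9 lower (5.14%, against 3.57%). With that correction over all 15 libraries, 4 of 177 were higher and 1 lower, where 0.225% of all genes were higher and 0.823% lower. Of the 177, 51 lay entirely higher in vehicle (28.8%, against 13.2% of all) and 13 entirely lower (7.34%, against 13.6%). The sarcomere list, with 55 members, had 1 higher and a median of 0.01. In the 6 libraries alone 8 sarcomere genes were higher and 4 lower.

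Myh8 (chr11:67277124-67308634), the perinatal myosin heavy chain, measured 246, 254 and 249 CPM in non-treated and 336, 312 and 301 CPM in vehicle. All vehicle values were higher, with a log2 fold change of 0.34 ± 0.0505 (SE, edgeR adjusted p = 0.00256), and 0.32 after the GC correction (0.00866). The other 8 myosin heavy chain genes were not called. The fast Myh4 went from 393 ± 13.5 to 435 ± 24.0 CPM (SD, n = 3) without overlap (log2 0.15, adjusted p = 0.0913). The embryonic Myh3 stayed at 3694 ± 86.9 and 3624 ± 219 CPM (log2 −0.03, 95% interval −0.17 to 0.11). The heavy chain genes are close copies, and reads that match several of them are divided by estimation in expected counts.

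Myl2, the regulatory light chain of slow and cardiac myosin, measured 49.9, 47.9 and 47.7 CPM in non-treated and 64.6, 64.0 and 59.7 CPM in vehicle. Vehicle exceeded non-treated in every library, with a log2 fold change of 0.37 (edgeR adjusted p = 0.00722, or 0.0525 without vehicle library 1). Colq, the collagen tail that anchors acetylcholinesterase at the synapse, went from 14.2 ± 0.645 to 17.7 ± 0.879 CPM (SD, n = 3, log2 0.32). Id3, which binds and blocks myogenic helix-loop-helix factors, went from 8.35 ± 0.485 to 10.8 ± 0.394 CPM (log2 0.37). The edgeR adjusted p was 0.0107 for both, and both calls were lost without non-treated library 3 (0.0709 for Colq and 0.0648 for Id3), and without vehicle library 2 (0.0633 and 0.0664). That of Colq was lost without vehicle library 1 as well (0.0777).

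The myogenic factors themselves showed little. Myod1 measured 165, 166 and 164 CPM in non-treated and 168, 161 and 166 CPM in vehicle, and the groups overlapped (log2 0.00, 95% interval −0.08 to 0.07). Myog, myogenin, went from 756 ± 9.76 to 807 ± 5.86 CPM (SD, n = 3), without overlap and without a call (log2 0.09, adjusted p = 0.188). Mymk, listed in the table under its older symbol Tmem8c, encodes the fusion protein myomaker and lay at 0.10 (adjusted p = 0.174). Acta1, skeletal alpha-actin, measured 4320, 4240 and 4122 CPM in non-treated and 4878, 4922 and 4874 CPM in vehicle. These groups were well apart, yet the gene was not called (log2 0.21, adjusted p = 0.0795), and with the 6 libraries alone it was (0.000917). Ckm, muscle creatine kinase, lay at 0.12 (adjusted p = 0.153). Of 17 atrophy genes 0 were called, with a median of 0.07.

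Among markers of unfused cells, Gas1 rose. Gas1 (chr13:60174405-60177365), named for its induction at growth arrest, measured 72.1, 68.2 and 66.4 CPM in non-treated and 86.8, 85.8 and 85.1 CPM in vehicle. No value overlapped, and the log2 fold change was 0.32 ± 0.0459 (SE, edgeR adjusted p = 0.00222). It was the 1 call of 19 myoblast and reserve cell genes, whose median was 0.08, where 0.553% of all genes were called higher. Of the 19, 16 had values above 0. Entirely higher in vehicle were 7 and entirely lower 0, against 13.2% and 13.6% of all genes. Pax7, the satellite cell factor, lay at 0.10 with overlap (adjusted p = 0.495). Of 34 matrix and fibroblast genes, 1 fell and 1 rose, against 0.754% and 0.553% of all genes. Postn (chr3:54361109-54391037), which encodes the matrix protein periostin, measured 325, 333 and 345 CPM in non-treated and 269, 255 and 274 CPM in vehicle. That fall, of 0.33 on the log2 scale (adjusted p = 0.000911), was well beyond the spread. Col6a2, a chain of collagen VI, went from 256 ± 8.82 to 290 ± 3.73 CPM (log2 0.18, adjusted p = 0.0125), and its call was lost with the GC correction (0.0624) and without any 1 library except non-treated library 1 (0.0525 to 0.0794).

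Other genes named by size of change had varied roles. Carns1, the synthase of the muscle dipeptide carnosine, rose from 22.9 ± 0.795 to 29.3 ± 0.284 CPM (SD, n = 3, edgeR adjusted p = 0.00918). Nos1, the neuronal nitric oxide synthase that muscle also makes, rose from 11.2 ± 0.454 to 14.3 ± 0.319 CPM (0.00933, but 0.0516 to 0.0560 without non-treated library 3 or vehicle library 1 or 2). Fbln7, a fibulin of the matrix, rose from 5.93 ± 0.629 to 8.52 ± 0.731 CPM, the largest log2 rise of the genes with at least 5 CPM (0.52, adjusted p = 0.0230, but 0.0813 to 0.132 without non-treated library 1 or 3 or vehicle library 1 or 2). Fgfbp1, which carries fibroblast growth factors, fell from 14.7 ± 0.467 to 11.1 ± 0.646 CPM (log2 −0.41, adjusted p = 0.00359). Below that level, 3 more called genes passed a log2 of 0.5 and were chosen after their values were seen. Mme, the peptidase neprilysin, measured 0.248, 0.245 and 0.259 CPM in non-treated and 0.676, 0.771 and 0.607 CPM in vehicle, apart but resting on few counts (log2 1.43). Tgfbr3l lay at 0.85 and Il18rap at −0.52. The calls of Mme and Il18rap were lost without any 1 library, at adjusted p up to 0.130, and that of Tgfbr3l without any but vehicle library 1, at up to 0.119.

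Responses that a solvent might be asked about were tested from lists. For targets of NRF2 (27 genes), the aryl hydrocarbon receptor (9), metallothioneins (5), p53 targets (18), interferon genes (15), osmotic response (9), circadian clock (18), glucocorticoid targets (11) and nuclear genes of oxidative phosphorylation (25), the edgeR fit called 0 members. With the 6 libraries alone it called 1, 1, 0, 3, 0, 1, 1, 0 and 2 of them in the same order, where 7.37% of all genes were called. Of the p53 targets 1 was higher and 2 were lower, and the called members of the other lists were higher. In the same order of lists, 4, 1, 0, 3, 1, 3, 5, 7 and 3 members lay entirely higher in vehicle. Entirely lower were 5, 0, 0, 4, 3, 1, 0, 0 and 1. Of all genes, 13.2% lay entirely higher and 13.6% entirely lower. The 11 glucocorticoid targets, 7 of them entirely higher, had a median of 0.07. Hmox1, the heme oxygenase gene that NRF2 drives, measured 51.6 ± 4.44 and 52.1 ± 0.0749 CPM (SD, n = 3, log2 0.01, 95% interval −0.15 to 0.18). Mt1, a metallothionein gene, lay at −0.07 with overlap. Of 25 genes of glycolysis and the hypoxia response, 23 had values below 0 with a median of −0.12. Called lower were 2, against 0.754% of all genes, and 15 lay entirely lower, against 13.6% of all. P4ha1, a collagen prolyl hydroxylase (−0.18, adjusted p = 0.0468), and Pkm, pyruvate kinase (−0.20, 0.0478), fell, and both calls were lost without any 1 library, at up to 0.182, and with library totals or limma-voom (0.0580 and 0.0615 for P4ha1, 0.0625 and 0.0584 for Pkm). That of P4ha1 was also lost with the GC correction (0.0751). Of 20 chaperone genes of the endoplasmic reticulum 1 was called lower, 11 lay entirely lower and 1 entirely higher, with a median of −0.07. Of 18 heat shock genes 1 was called lower and 1 higher, 9 lay entirely lower and 1 entirely higher, with a median of −0.11. Of all genes, 0.754% were called lower and 0.553% higher, and 13.6% lay entirely lower and 13.2% entirely higher. With the 6 libraries alone, 5 chaperone and 7 heat shock members were lower, against 3.94% of all genes. In that fit 0 and 1 members were higher, against 3.42%. Among chaperones, Hsp90b1 (−0.26, 0.0133) of the endoplasmic reticulum and Hspd1 (−0.19, 0.0138) of mitochondria fell and the small heat shock protein gene Hspb8 rose (0.13, 0.0369). Each of these 3 calls was lost without 4 or more of the single libraries, at up to 0.153, and that of Hspb8 with the GC correction (0.0722), upper-quartile scaling (0.0602) or no filter on low counts (0.0810) too.

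Set beside the JGT libraries, the vehicle means of Mki67 and of the mitosis list lay between the non-treated and the JGT ones. The group means of Mki67 were 143 CPM without treatment, 113 in vehicle, and 102, 90.1 and 42.1 CPM at 20, 100 and 500 µg/mL of JGT. The median of the mitosis list relative to non-treated was −0.23 in vehicle and −0.36, −0.57 and −1.45 at these doses, and that of the actin cytoskeleton list was −0.10, then −0.17, −0.31 and −0.68. Hmgcs1 was at 381 CPM in vehicle and at 323, 326 and 347 CPM at the 3 doses, all under the 446 CPM of non-treated myotubes. Egr1 was at 157 CPM in vehicle and 179, 178 and 122 CPM with JGT. The median of the early-response list, unlike Egr1, was 0.08 in vehicle, then 0.04, 0.03 and −0.11. That of the glycolysis and hypoxia list was −0.12 in vehicle, then −0.05, −0.05 and 0.00. For heat shock genes it was −0.11 in vehicle, then 0.01, −0.02 and −0.005. All these differences share the non-treated libraries. The 6 control libraries and the JGT libraries carry sample codes from different runs of numbers, although all titles carry 1 batch label, so that JGT and this difference in codes cannot be told apart.

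**Figure D5:**
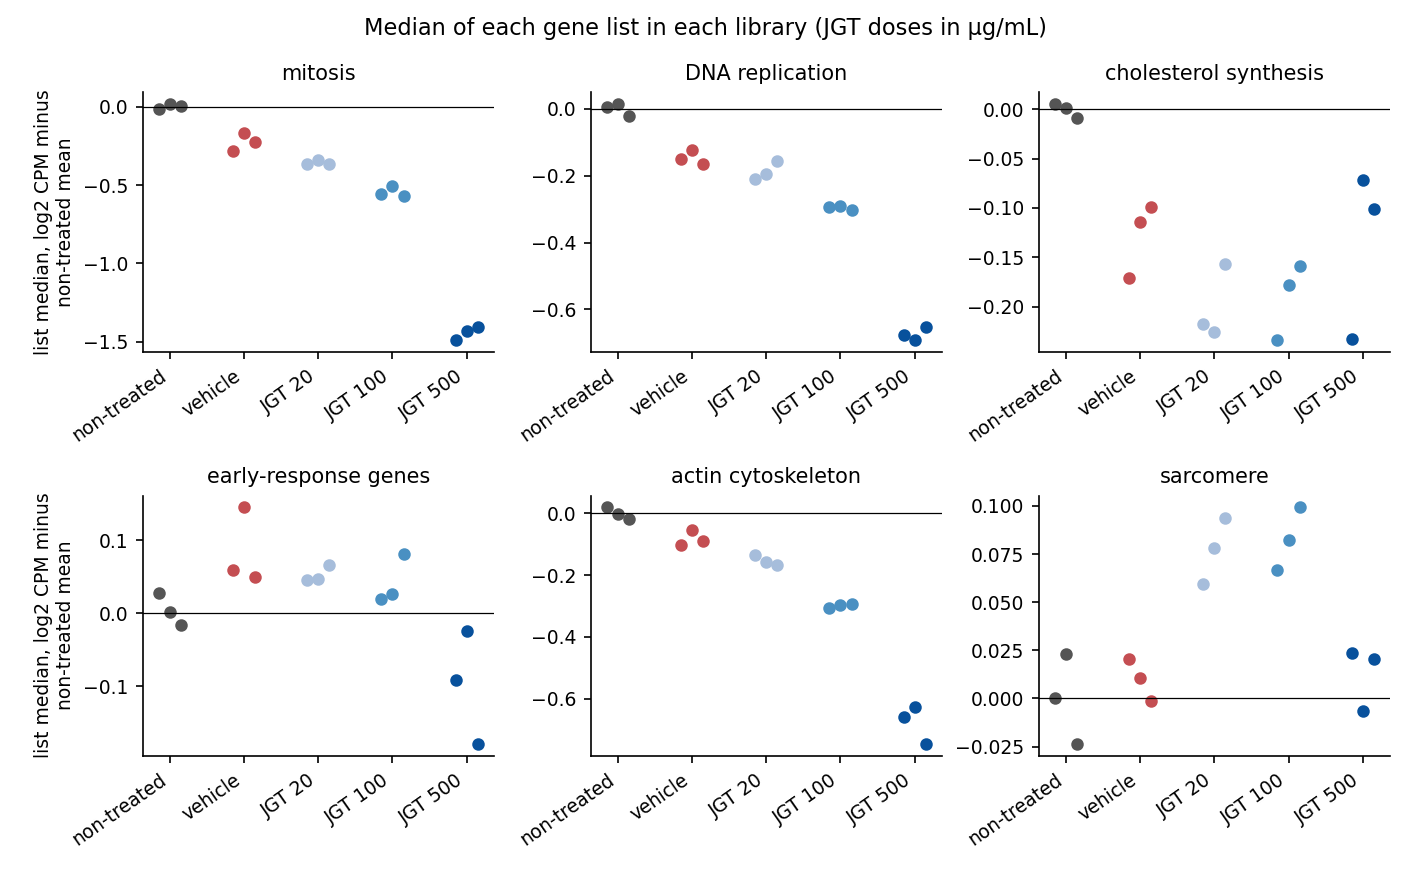
Median over each of 6 gene lists, as log2 CPM minus the non-treated mean (y axis, a different range in each panel), for every library of the 5 groups (3 points each). For mitosis, DNA replication, cholesterol synthesis and actin cytoskeleton genes the 3 vehicle points lie below the 3 non-treated ones, for early-response genes above, and for sarcomere genes they overlap.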

How the data were processed

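RNA was sequenced from 15 libraries of C2C12 myotubes, 3 per group, grouped here by their treatment labels. Per the labels' protocols, libraries were directional (MGI kit) with paired reads of 100 bp. The submitters' processing notes name the build GRCm38 (mm10) and the tools RSEM 1.3.3, STAR 2.7.3a, Trim Galore 0.6.5 and FastQC 0.11.9. What each tool did, the annotation and whether counting used strand were not given in the sources used here. Because of this, genes with exons opposite another gene's (among them Ccnd1, Ccna2, Kif20a, Hmgcs1, Idi1, Myl2, Gas1, Tagln, Carns1, Nos1, Prc1, Elovl6, Junb and Hsp90b1) can share counts, and reads of close copies or pseudogenes (Myh8, Actg2, Npm1, Hspd1, Fdps) can be divided between symbols.

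Values in the deposited table are expected counts for each gene symbol, as the authors estimated them, with no scaling. They were rounded to whole numbers, since 9.34% were not whole within 0.005. Genes were filtered with filterByExpr, scaled by TMM (CPM are such scaled counts) and tested with edgeR 4.0.16 in R 4.3.3: a robust quasi-likelihood F test, two-sided, 1 mean per group, all 15 libraries, 10 residual degrees of freedom. The biological coefficient of variation was 5.31%, or 3.83% in the 6 libraries alone. Benjamini-Hochberg adjustment ran over all 14461 genes, and every adjusted p not named otherwise is from this test. Totals of the 6 libraries ran from 26012844 to 29685983, and the median 95% interval reached 0.15 to either side of a log2 fold change. Replicate pairs differed by a mean chi-square per gene of 1.97 to 8.93, where sampling noise gives about 1, so no library looked like a repeat deposit of another. This does not show that they came from separate cultures.

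The naming rule took 12 called genes by size of rise and 12 by size of fall, among genes of at least 5 CPM without overlap. It also took a fixed set of genes, and list members by smallest p. Not all of these are described: Polq, Shcbp1 and Plet1, among others, were called lower and are left out above. The comparison, the naming rule and the 46 gene lists were chosen with earlier results of these data known. Transcript GC content came from GENCODE M21 (98.3% of tested genes) and promoters from RefSeq (GRCm38.p6). The GC correction subtracted a lowess curve (span 0.3) within each library. Alternatives were DESeq2 1.42.0, limma-voom (limma 3.58.1), other scalings, filters and sets of libraries, and a replicate block. The tests were tested on simulated data. Some members of the sterol lists are counted but not reported by name here.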

Additional observations from a re-analysis of the deposited data

How the results depend on the processing

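No called gene among the 73 followed changed direction under any alternative, and 16 of the 73 calls held under all of them. With the 6 control libraries alone there were 1031 calls, 479 higher and 552 lower, of which 35 reached a log2 of 0.5 (4 in the fit of 15). The lists then had 6 early-response members higher and 12 cholesterol, 18 DNA replication and 38 mitosis members lower. The GC correction over 15 libraries left 32 genes higher, 0 of them early-response genes. In the 6 libraries it gave 816 calls, 323 higher and 493 lower, 27 of them past 0.5, with 4 early-response members higher and 9 cholesterol, 17 replication and 7 actin cytoskeleton members lower. DESeq2's test called 319 genes, 130 higher and 189 lower, with 5 early-response members, and limma-voom 1 such member. Without the filter 179 genes were lower, 11 calls passed 0.5, and 8 replication genes were lower, as were 7 with upper-quartile scaling. Leaving out 1 library gave 36 to 88 calls, 10 to 35 higher and 21 to 53 lower, 0 to 5 of them past 0.5. It left 0 early-response members higher, and 1 to 2 cholesterol, 1 to 3 replication, 6 to 13 mitosis and 1 to 4 actin cytoskeleton members lower. Fewer samples and, with the 6 libraries, a smaller estimated spread belong to these settings. The cause of the other changes was not tested.

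The replicate numbers did not pair the libraries: same-numbered deviations from the group means correlated at −0.02, −0.02 and 0.11, and of the non-treated libraries only the third correlated best with its own number. With a replicate block, the 6 libraries gave 465 calls, 190 higher and 275 lower, 22 of them past 0.5, with 4 early-response members higher and 7 cholesterol and 9 replication members lower. The call of Hspb8 was lost under the block (adjusted p = 0.0583). The median 95% interval reached 0.15 to either side of a log2 fold change, so a gene not called is not shown to be unchanged.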

Other observations

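Growth and protein-making genes outside the comparison's main groups also included calls. Inhba, which encodes a subunit of activin, fell from 33.3 ± 2.20 to 26.2 ± 0.809 CPM (SD, n = 3, log2 −0.35, edgeR adjusted p = 0.0125), and Npm1, the nucleolar protein nucleophosmin, from 334 ± 5.66 to 286 ± 9.47 CPM (log2 −0.23, adjusted p = 0.0103). Of 20 ribosome biogenesis genes, 18 had values below 0 with a median of −0.08, and 1, Npm1, fell, against 0.754% of all genes. Entirely lower in vehicle were 9 and entirely higher 1, against 13.6% and 13.2% of all genes. Of 38 ribosomal protein genes 0 were called, with a median of −0.03. Hdac5, a histone deacetylase that restrains MEF2 factors, rose from 84.6 ± 0.807 to 97.5 ± 3.78 CPM (log2 0.21, adjusted p = 0.00967, but 0.0705 with the GC correction). Map1lc3a, a component of autophagosomes, rose from 124 ± 6.19 to 145 ± 1.59 CPM (log2 0.23, adjusted p = 0.0236, but 0.248 with the GC correction). Inhba was called in 12 of 17 alternatives, Npm1 and Hdac5 each in 14 and Map1lc3a in 11.

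A few symbols for pseudogenes or predicted loci differed widely between libraries and were chosen after their values were seen. Gm20388 had expected counts of 706, 364 and 559 in the non-treated libraries and is listed at 0 in all 3 vehicle libraries, and its test did not call it (edgeR adjusted p = 0.243). Gm29216 had 0, 43.1 and 1385 expected counts in non-treated and 26.3, 2126 and 2838 in vehicle. Gm5537 had 88.0, 698 and 119 against 213, 0 and 0. Rps12l1 had 232, 219 and 272 against 139, 43.2 and 121. Whether the division of shared reads between such symbols and their parent genes set these values was not tested.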
